A study of Arabidopsis thaliana with 24 samples.

Results

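The results concern 8 genes of the histone variant H2A.Z and of chromatin factors linked to growth in the warm, out of 33540 genes listed for each sample. They were picked by identifier and not by their values: the H2A.Z genes HTA8 (AT2G38810), HTA9 (AT1G52740) and HTA11 (AT3G54560), the SWR1 complex genes ARP6 (AT3G33520), SWC6 (AT5G37055) and PIE1 (AT3G12810), the histone deacetylase gene HDA9 (AT3G44680) and PWR (AT3G52250), known as POWERDRESS. RNA was sequenced from whole wild-type Col-0 seedlings of Arabidopsis thaliana grown in short days at 22 °C or 27 °C for 2 or 7 days. All seedlings received 0.1% DMSO in the medium, either alone (mock) or with 8.5 µM Heatin, a compound that lengthens the hypocotyl. The 8 groups of age, temperature and compound had 3 samples each, 24 in all. Every sample combined the RNA of 3 batches of seedlings that were collected apart from each other at dawn.

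H2A.Z is a variant of histone H2A that replaces the usual H2A in nucleosomes, many of them near the start of genes. In Arabidopsis the SWR1 complex puts it there, with PIE1 as the motor subunit and ARP6 and SWC6 as further subunits, and nucleosomes with H2A.Z are known to lose it at warm-responsive genes when the temperature rises. HDA9 removes acetyl groups from histones and works together with PWR, a SANT-domain protein, and plants lacking either elongate poorly in the warm. All of this concerns proteins and chromatin, whereas the values below are transcript levels.

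The depth per sample ranged from 19705950 to 60575036 reads assigned to genes, and the member value with the fewest reads, HTA8 in Heatin replicate 2 of 7 days at 27 °C, rested on 92. Markers of green tissue summed to between 692445 and 2027330 normalized reads over 5 genes and markers of root to between 1902 and 7115 over 4 genes, with none at 0 in any sample. Because the samples are bulk RNA, fewer cells of a type and less RNA per cell cannot be told apart in any value below. The p-values measure the spread between such pooled samples.

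The 3 H2A.Z genes lie on different chromosomes and differ enough in sequence to be counted apart. In the RefSeq annotation of TAIR10.1, HTA9 spans chr1:19645236-19646485 on the plus strand, HTA11 spans chr3:20196140-20197726 on the plus strand and HTA8 spans chr2:16219220-16220928 on the minus strand. Over their coding sequences HTA11 and HTA8 were 81.8% identical, HTA9 and HTA11 74.8%, and HTA9 and HTA8 72.6%. The last 90 coding bases of each, which end in the stop codon, are shown because they let a reader see how the transcripts are told apart, with capitals at the 23 positions where the genes are not all alike.
HTA9: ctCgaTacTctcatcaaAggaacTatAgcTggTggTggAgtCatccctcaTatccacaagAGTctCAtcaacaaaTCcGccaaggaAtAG
HTA11: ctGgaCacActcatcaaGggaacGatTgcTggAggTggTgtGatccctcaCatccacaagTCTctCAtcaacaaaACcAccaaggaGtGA
HTA8: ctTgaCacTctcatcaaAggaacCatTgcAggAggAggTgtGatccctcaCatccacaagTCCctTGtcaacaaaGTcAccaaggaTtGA
The longest identical run between any 2 of these coding sequences was 29 bases, and no 50-base stretch of the exons, the length of a read, occurred in more than 1 of them or elsewhere in the genome.

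HDA9 (chr3:16226519-16230009, minus strand) was the only member with repeated sequence. Of its 1739 exonic 50-base stretches, 252 (14.5%) occurred more than once in the genome, and 285 (16.4%) were also in the exons of its copies HDA10 (AT3G44660) or HDA17 (AT3G44490). The longest stretch found in the exons of all 3 genes was 85 bases long and is shown because a read from inside it cannot be given to HDA9 alone.
HDA9, HDA10 and HDA17: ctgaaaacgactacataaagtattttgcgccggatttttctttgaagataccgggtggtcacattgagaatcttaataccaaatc
HDA10 and HDA17 had mean normalized read counts of at most 0.66 and 1.15 in any group, against 407 or more for HDA9. Reads that fit several places were not counted for any gene. Among the other members, exons overlapped those of a neighbour over 340 bases in PIE1 (chr3:4065042-4074194, of 6964 exonic bases), 104 in PWR (chr3:19376138-19383369, of 5731), 21 in HTA9 and 15 in ARP6 (chr3:14093656-14095588). Since counting ignored strand, reads from those stretches cannot be told apart from those of the neighbour, and they may have been set aside as ambiguous. SWC6 (chr5:14641442-14642513) had no such overlap.

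The stretches around the start of the H2A.Z genes, from 250 bases before it to 50 bases after, are shown because HTA8 and HTA11 moved together while HTA9 moved the other way. They were searched on both strands for 4 short motifs: the G-box CACGTG, the telo-box AAACCCTA, the site II element TGGGCC and the E2F site TTTCCCGC, which occur in 7.68%, 6.22%, 15.5% and 0.798% of the 27443 stretches around protein-coding genes. Matches are in capitals, and each run reads in the direction of its gene.
HTA8, chr2:16220879-16221178: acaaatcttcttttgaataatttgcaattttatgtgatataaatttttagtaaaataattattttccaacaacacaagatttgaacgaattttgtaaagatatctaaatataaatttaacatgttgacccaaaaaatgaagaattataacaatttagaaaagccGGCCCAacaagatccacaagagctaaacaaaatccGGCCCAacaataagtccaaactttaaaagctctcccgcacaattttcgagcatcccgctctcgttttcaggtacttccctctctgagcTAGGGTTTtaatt
HTA11, chr3:20195890-20196189: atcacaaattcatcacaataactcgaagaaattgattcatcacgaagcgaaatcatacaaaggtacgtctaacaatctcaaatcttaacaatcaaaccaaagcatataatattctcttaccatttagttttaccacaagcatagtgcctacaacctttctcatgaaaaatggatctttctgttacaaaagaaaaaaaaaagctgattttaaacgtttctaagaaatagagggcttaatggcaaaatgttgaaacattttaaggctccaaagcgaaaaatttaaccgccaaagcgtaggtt
HTA9, chr1:19644986-19645285: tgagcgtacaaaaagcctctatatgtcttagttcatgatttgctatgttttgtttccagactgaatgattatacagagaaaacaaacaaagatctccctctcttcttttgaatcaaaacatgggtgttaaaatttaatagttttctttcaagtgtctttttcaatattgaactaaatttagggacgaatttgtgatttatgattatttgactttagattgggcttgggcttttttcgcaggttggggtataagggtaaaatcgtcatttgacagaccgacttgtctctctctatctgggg
HTA8 held 2 site II elements and 1 telo-box, all on the strand opposite to the gene, and the windows of HTA11 and HTA9 held no exact match to any of the 4. Forms that differ by a base, such as tgggct in the window of HTA9, were not searched. The windows are thus not shown to lack elements of these kinds. Of the other 5 members, SWC6 held 2 site II elements and the rest none.

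Measured per kilobase of exon, HTA9 was by far the most abundant of the 8 genes, with a mean of 8793 normalized reads per kilobase over the 24 samples. HTA11 followed with 1185, while HTA8 reached 350.1. The normalized read counts of each member in each sample are plotted first. From the lowest to the highest sample, HTA11 spanned 4.38-fold and HTA8 3.94-fold, followed by SWC6 with 2.45-fold, HTA9 with 2.31-fold, PWR with 2.01-fold and ARP6 with 1.80-fold. HDA9 and PIE1 varied least, over 1.51-fold and 1.49-fold.

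**Figure D1:**
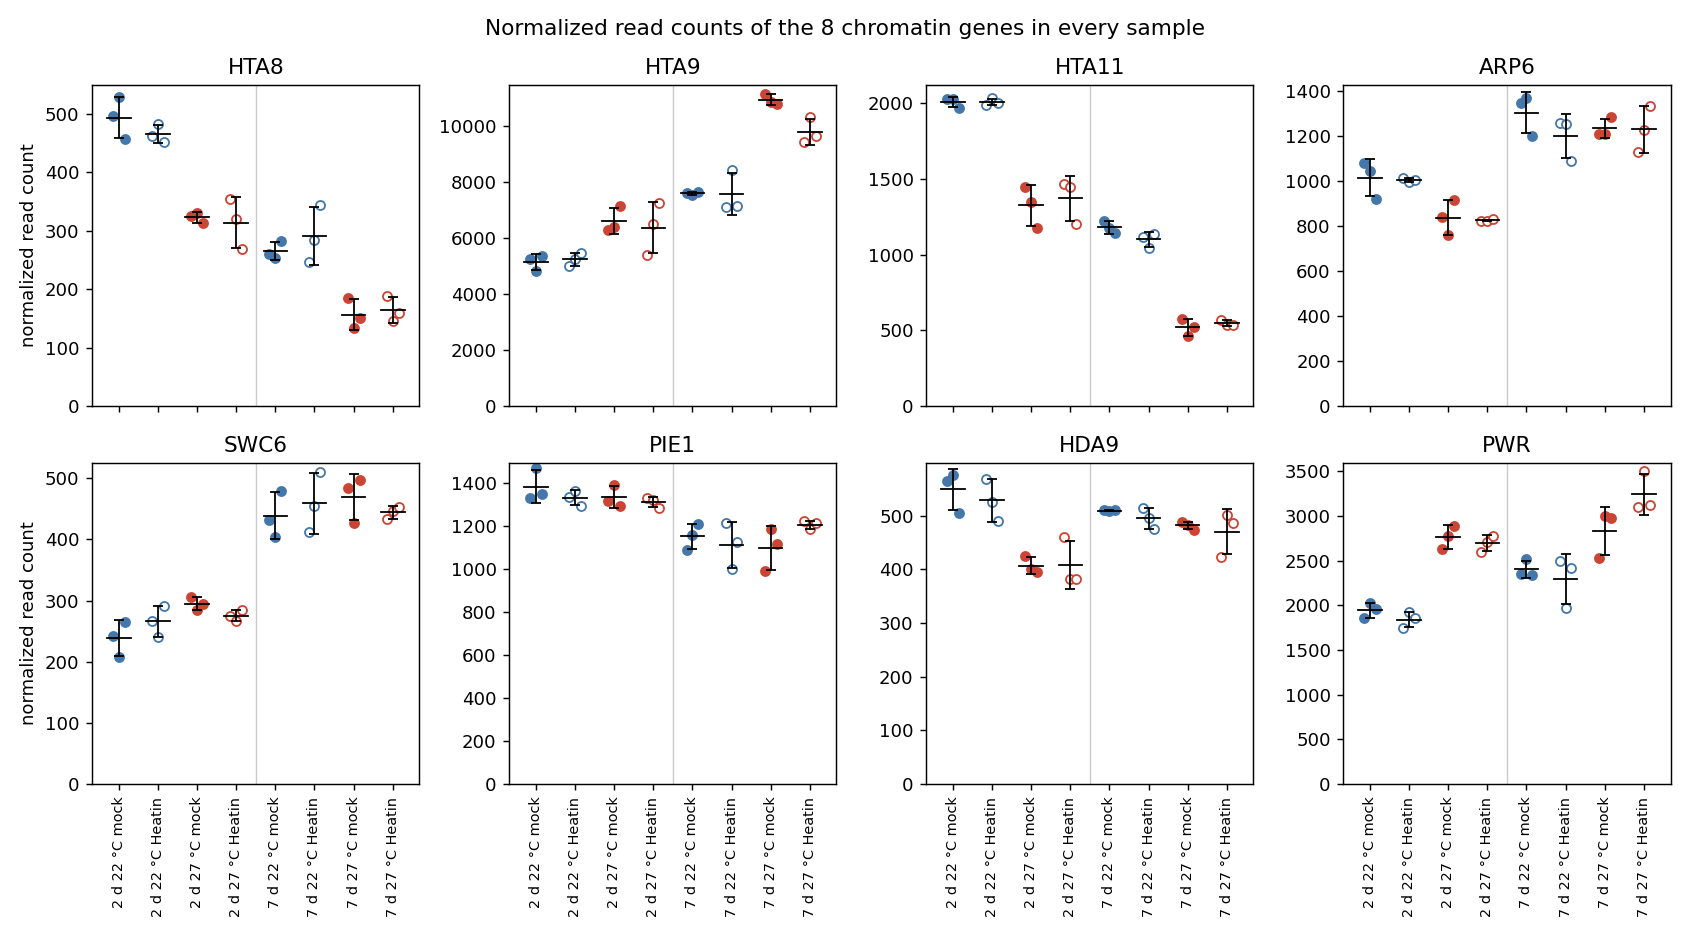
Normalized read counts (y axis, linear from 0) of the 8 genes in the 8 groups (x axis). Each point is 1 sample, blue at 22 °C and red at 27 °C, filled for mock and open for Heatin, and bars give the mean ± SD of 3 samples. HTA9 climbs from a mean of 5144 in 2-day mock seedlings at 22 °C to 10928 in 7-day mock seedlings at 27 °C, while HTA11 falls from 2009 to 519 and HTA8 from 494 to 157.

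The first question was how growth at 27 °C rather than 22 °C bore on these transcripts. In 2-day mock seedlings 7 of the 8 genes differed between the temperatures (limma, Benjamini-Hochberg adjusted p below 0.1), 3 of them higher and 4 lower at 27 °C. Warmth moved much of the transcriptome, with 35.3% of the 23140 genes tested called higher and 34.3% lower, so being called did not set the members apart from other genes. With Heatin 6 of the 8 differed, 2 higher (34.1% of all genes) and 4 lower (34.4%). At 7 days 4 of 8 differed in mock, 2 higher against 28.8% of 23252 genes and 2 lower against 32.9%, and 4 of 8 with Heatin, 2 higher against 29.4% and 2 lower against 33.5%. The same 4 genes, HTA8, HTA9, HTA11 and PWR, were called in all 4 temperature comparisons, each in a single direction. Between 14360 and 16094 genes of all those tested were called in each of these comparisons. The share of all genes called in all 4 was not counted, so being called in all 4 is not shown to be particular to these members.

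HTA9, which supplies most of the H2A.Z transcript, rose in the warm at both ages. In 2-day mock seedlings its normalized read counts were 5249, 4820.3 and 5363 at 22 °C and 6269.6, 6385 and 7128 at 27 °C. At 7 days they were 7609.9, 7538 and 7643 at 22 °C and 11149, 10862 and 10773 at 27 °C. No warm sample of an age overlapped a cool one, and every 7-day sample lay above every 2-day sample of its temperature. The rise was 1.28-fold at 2 days (log2 difference 0.36, 95% interval 0.14 to 0.57, limma adjusted p = 0.00677) and 1.44-fold at 7 days (0.52, 0.39 to 0.66, limma adjusted p = 2.45e-06). With Heatin the rises were 1.21-fold at 2 days and 1.297-fold at 7 days. The 2-day Heatin groups overlapped, the lowest warm sample (5399) lying under the highest cool one (5473), and without Heatin replicate 3 at 27 °C the log2 difference dropped from 0.27 to 0.18 and the call was lost.

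HTA11 went the other way, and its fall at 7 days was the largest temperature difference of any member. In 2-day mock seedlings it gave 2029, 2028 and 1971 normalized reads at 22 °C and 1449.8, 1346 and 1178 at 27 °C. At 7 days it gave 1225, 1173 and 1142 at 22 °C and 574, 464 and 519.9 at 27 °C. All warm samples lay below all cool samples of their age. HTA11 fell by 0.61 on the log2 scale at 2 days (SE 0.09, limma adjusted p = 8.12e-05) and by 1.19 at 7 days (SE 0.07, limma adjusted p = 1.96e-09), which is 2.28-fold. The fall at 7 days was larger than that at 2 days in mock (difference between the ages -0.58, SE 0.11, limma adjusted p = 0.000362) and with Heatin (-0.46, SE 0.11, limma adjusted p = 0.00338). With Heatin HTA11 fell by 0.55 at 2 days and by 1.01 at 7 days.

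HTA8, the least abundant of the H2A.Z genes, fell alongside HTA11. At 2 days its mock samples gave 496, 529 and 457 normalized reads at 22 °C and 326, 331 and 313 at 27 °C, and at 7 days 261, 253 and 283 at 22 °C and 186, 134 and 150.0 at 27 °C. The temperatures were separate at either age. The log2 differences were -0.61 (SE 0.10, limma adjusted p = 0.000198) and -0.77 (SE 0.14, limma adjusted p = 0.000240) in mock, and -0.58 and -0.82 with Heatin. Whether the response of HTA8 or HTA9 changed with age was tested and not called: the differences between the ages were -0.16 (95% interval -0.54 to 0.22) and 0.17 (-0.08 to 0.42) in mock.

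**Figure D2:**
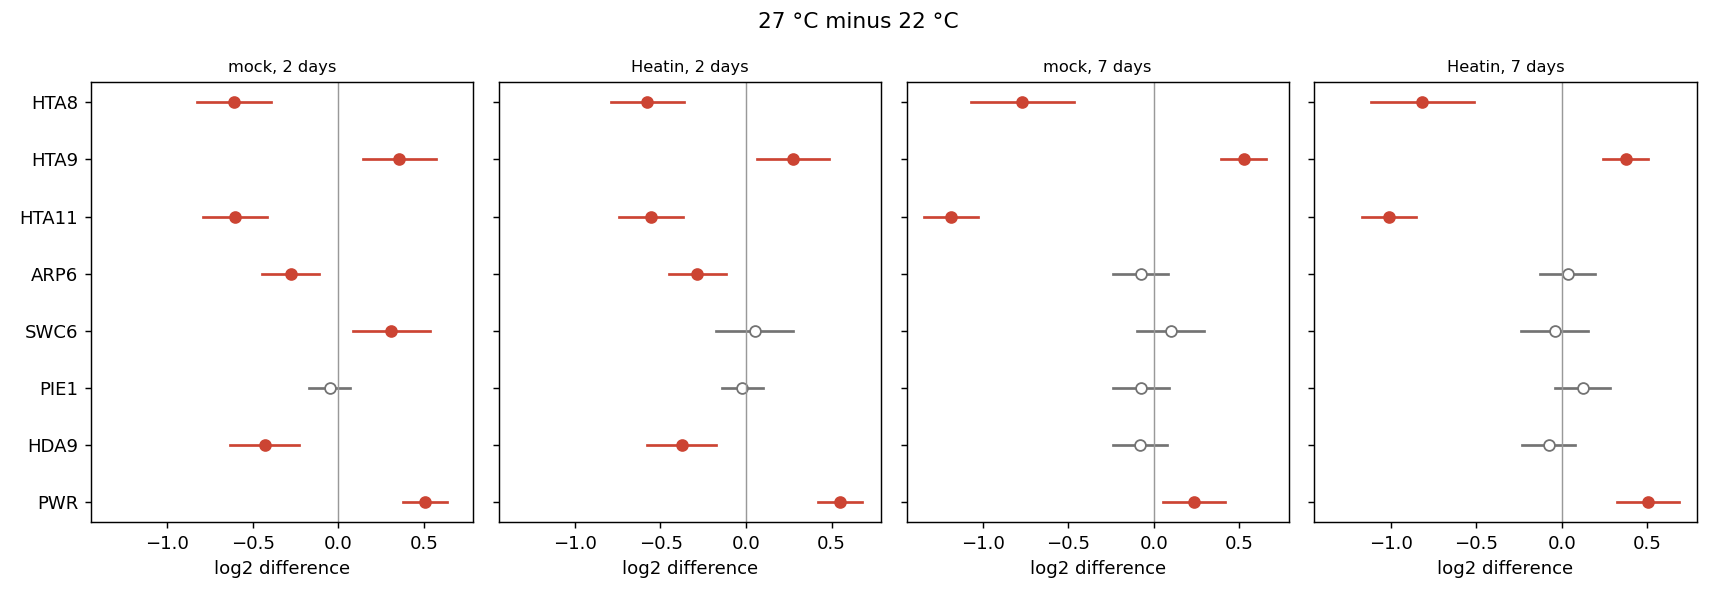
Log2 difference of 27 °C minus 22 °C (x axis) for each of the 8 genes (y axis) in mock and Heatin seedlings of 2 and 7 days, from limma on log2(normalized read count + 1). Points are estimates and lines 95% intervals, red and filled where the adjusted p was below 0.1. HTA9 and PWR lie right of 0 and HTA8 and HTA11 left of 0 in all 4 panels, with HTA11 reaching -1.19 in 7-day mock seedlings.

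The share of H2A.Z transcript that each gene supplied shifted accordingly. Per kilobase, HTA9 made up 71.3% ± 1.67 (SD, n = 3) of the summed level of the 3 genes in 2-day mock seedlings at 22 °C and 82.8% ± 2.15 at 27 °C. At 7 days its share was 86.5% ± 0.254 at 22 °C and 95.1% ± 0.502 at 27 °C. The share of HTA11 went from 22.1% to 3.58% across the same 4 groups, and that of HTA8 from 6.54% to 1.296%. The Heatin groups had HTA9 shares of 72.0%, 81.9%, 86.7% and 94.3%, each within 1 percentage point of the mock group of its age and temperature. The sum of the 3 genes did not fall with warmth or age. In mock it was 8562 ± 284 normalized reads per kilobase at 2 days and 22 °C, 9446 ± 420.1 at 27 °C, 10435 ± 79.1 at 7 days and 22 °C, and 13646 ± 301 at 27 °C. With Heatin it was 8636 ± 291, 9218 ± 935, 10354 ± 848 and 12329 ± 517 in the same order. At 7 days and 27 °C the Heatin samples (11927 to 12912) lay below the mock samples (13455 to 13993), a difference of sums that was not tested.

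Most of the remaining H2A genes fell in the warm, where HTA9 rose. Of 10 other H2A genes 7 fell and 2 rose in the warm in 2-day mock seedlings (34.3% and 35.3% of all genes), and 8 fell and 1 rose at 7 days (32.9% and 28.8%), with median log2 differences of -0.59 and -0.41 beside 0.01 and -0.03 over all genes tested. HTA6, of the H2A.W class found in heterochromatin, fell by 1.04 and 1.40 on the log2 scale. HTA3, of the H2A.X class linked to DNA damage, fell by 0.92 at 2 days and 0.26 at 7 days. The canonical genes HTA13, HTA10 and HTA2 fell by 0.70, 0.65 and 0.61 at 2 days and by 0.90, 0.81 and 0.65 at 7 days. HTA12, also of the H2A.W class, rose by 0.87 at 2 days and 0.16 at 7 days (limma adjusted p = 1.03e-05 and 0.0592). Exons of a neighbour overlap 522 of the 1506 exonic bases of HTA12. In HTA3 those of AT1G54680 and AT1G07983 overlap 259 and 240 of 801. With strand ignored, reads from these stretches cannot be told apart. They may have been set aside as ambiguous, which lowers a value, or counted although they came from the neighbour. This limits the values of both genes and the sums that hold them. HTA4, a further gene of the H2A.Z class that rose by 0.85 at 2 days and fell by 0.53 at 7 days, was scarce, with means of 14.4 to 81.3 normalized reads in the mock groups, and is counted among the 10.

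Summed per kilobase, those 10 genes dropped from 27392 in 2-day mock seedlings at 22 °C to 17435 at 27 °C, 12209 at 7 days and 22 °C, and 8363 at 7 days and 27 °C. HTA8, HTA9 and HTA11 therefore held 23.9% ± 1.58, 35.2% ± 2.71, 46.1% ± 0.987 and 62.0% ± 1.18 (SD, n = 3) of all H2A transcript in these groups. The exon lengths are those of RefSeq, whereas reads were counted on TAIR10 gene models. Shares and sums over several genes depend on the lengths used, and other lengths were not tried. With these lengths, every 7-day sample at 27 °C, mock or Heatin, had more H2A.Z than other H2A transcript. In the 6 other groups every sample had less. Markers of dividing cells moved with these values: the summed normalized reads of 8 such genes ran from 11301 to 13111 in 2-day mock samples at 22 °C, 4691 to 5711 at 27 °C, 4029.6 to 4422 at 7 days and 22 °C, and 1877 to 2096 at 27 °C. All 8 fell with warmth at both ages and with age at both temperatures, none was at 0 in any sample, and their part in the values of HTA8, HTA9, HTA11 and the other H2A genes was not tested. With warmth in mock at 2 days 1 of 4 root markers rose and 2 fell, 1 of 5 green-tissue markers rose and 0 of 8 seed markers were called. At 7 days 5 of 5 green-tissue markers and 3 of 4 root markers fell, while 2 of 8 seed markers rose. With age in mock, 8 of 8 seed markers fell at 22 °C and 6 of 8 at 27 °C, and 3 of 4 root markers fell at 22 °C, where 1 rose, and 4 of 4 at 27 °C. Green-tissue markers rose with age, 5 of 5 at 22 °C and 3 of 5 at 27 °C, where 1 fell. The part of these in the members' values was not tested either.

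**Figure D3:**
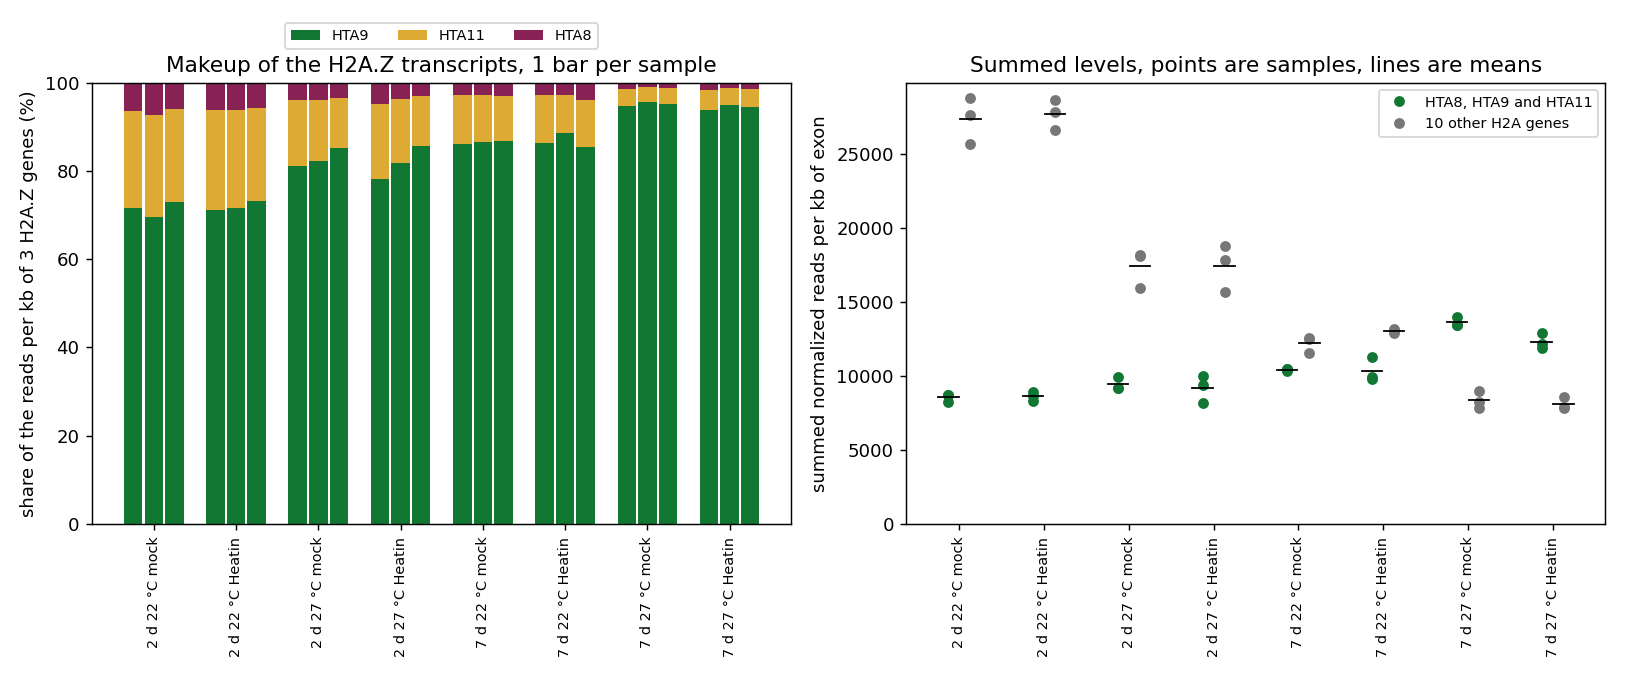
Left, percentage (y axis) of the summed normalized reads per kilobase of HTA9, HTA11 and HTA8 that each gene supplied, 1 bar per sample in the 8 groups. Right, summed normalized reads per kilobase (y axis) of those 3 genes and of 10 other H2A genes, with points for samples and lines for means of 3. HTA9 grows from 71.3% to 95.1% of the H2A.Z sum in mock, and only the 7-day seedlings at 27 °C have the H2A.Z sum above the other H2A genes.

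Of the genes of the loading complex, ARP6 and SWC6 were called for warmth at 2 days only. ARP6, an actin-related subunit, had 1077, 1042 and 920.1 normalized reads in 2-day mock samples at 22 °C and 837, 757 and 913 at 27 °C. It fell by 0.28 on the log2 scale in mock (SE 0.08, limma adjusted p = 0.00667) and by 0.28 with Heatin (limma adjusted p = 0.00603), the groups being separate in either case. At 7 days the log2 differences were -0.08 and 0.04, both not called. The difference between the ages was called with Heatin (0.32, limma adjusted p = 0.0260) and not in mock (0.20, limma adjusted p = 0.153), where leaving out replicate 3 of the 2-day group at 22 °C or at 27 °C gave 0.27 and a call.

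SWC6, a zinc-finger subunit, gave 242, 208 and 266 normalized reads in 2-day mock samples at 22 °C and 307, 284 and 295 at 27 °C. It rose 1.24-fold (log2 0.31, SE 0.10, limma adjusted p = 0.0190). With Heatin its log2 difference was 0.05 (95% interval -0.17 to 0.28), and the difference between the compounds was -0.26 (-0.58 to 0.06, unadjusted p = 0.100), so a change of the temperature response with Heatin was not shown. PIE1, the ATPase of the complex, was not called for temperature in any of the 4 comparisons, although 5 other settings called it at 7 days with Heatin. There its log2 difference was 0.12, and 0.19 with a call without replicate 1 at 22 °C. Its 2-day mock samples gave 1331, 1471 and 1351 normalized reads at 22 °C and 1319, 1395 and 1297 at 27 °C, a log2 difference of -0.05 with a 95% interval of -0.17 to 0.07.

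Of 10 other SWR1 subunits and partners 1 rose and 5 fell in the warm in 2-day mock seedlings, beside 35.3% and 34.3% of all genes. At 7 days 6 rose and 1 fell, beside 28.8% and 32.9%. The number called in both directions together was near that of other genes at each age. By direction the counts leaned to falls at 2 days and to rises at 7 days, a split that was not tested. The medians were -0.23 and 0.16 beside 0.01 and -0.03 over all genes. The RuvB-like gene AT3G49830 rose by 1.63 and 0.77 from a low level, and its relative AT5G67630 fell by 0.35 at 2 days and rose by 0.78 at 7 days. YAF9A, a histone-reading subunit, fell at both ages, by 0.67 and 0.47, while ARP4, an actin-related subunit shared with other complexes, was at 0.08 at 2 days (not called) and rose by 0.68 at 7 days. RIN1, a RuvB-like ATPase, fell by 0.50 at 2 days and rose by 0.15 at 7 days (limma adjusted p = 0.00180 and 0.0812). Of 5 factors known for taking H2A.Z out of chromatin or binding it outside, 2 rose and 2 fell at 2 days, and 4 rose and 0 fell at 7 days, against the same shares of all genes. INO80, the motor of the complex of that name, rose at both ages, by 1.36 and 0.53. AT4G38495, an INO80-complex subunit, rose by 0.47 and 0.48. The chaperone genes NRP1 and NRP2 fell at 2 days, by 0.77 and 1.10, and at 7 days NRP1 rose by 0.60 and NRP2 was at 0.02, not called.

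HDA9 and PWR, whose proteins act together, moved in opposite directions at 2 days. HDA9 had 565, 576 and 506 normalized reads in 2-day mock samples at 22 °C and 425, 401 and 395 at 27 °C. It fell by 0.43 on the log2 scale (SE 0.09, limma adjusted p = 0.00145), and by 0.38 with Heatin. PWR had 1857, 2024 and 1956 normalized reads at 22 °C and 2629, 2776 and 2891 at 27 °C, a rise of 1.42-fold (log2 0.51, SE 0.06, limma adjusted p = 2.31e-05), with 1.46-fold under Heatin. For either gene the warm and cool samples of 2 days did not overlap.

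At 7 days HDA9 no longer differed by the test, while PWR still did. HDA9 gave 510.2, 508 and 509.98 normalized reads at 22 °C in mock and 488, 483 and 474 at 27 °C, which did not overlap yet gave a log2 difference of -0.08 (95% interval -0.24 to 0.08). PWR gave 2348, 2513 and 2340.2 at 22 °C and 2523, 2995 and 2979 at 27 °C, a 1.18-fold rise (log2 0.24, limma adjusted p = 0.0290) in mock and 1.42-fold with Heatin (0.50, limma adjusted p = 0.000109). The mock call rested on few samples: without replicate 2 or replicate 3 at 27 °C the value was 0.19 or 0.20 and was not called. The response of HDA9 differed between the ages in mock (0.35, limma adjusted p = 0.0182) and with Heatin (0.30, limma adjusted p = 0.0437), and that of PWR in mock (-0.27, limma adjusted p = 0.0571). The call of PWR was lost without mock replicate 1 of 2 days at 22 °C, replicate 3 of 2 days at 27 °C, replicate 2 of 7 days at 22 °C or replicate 1 of 7 days at 27 °C, with values of -0.24 to -0.19. That of HDA9 with Heatin was lost without replicate 1 of 2 days at 22 °C, replicate 2 or 3 of 2 days at 27 °C or replicate 2 of 7 days at 27 °C, with values of 0.24 to 0.25. In all, 3 of 8 members had a temperature response that differed between the ages in mock, where 50.1% of 23427 genes did, and 3 of 8 with Heatin, where 46.4% did.

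Other deacetylase genes were called in both directions. Of 15 other histone deacetylase genes 13 could be tested at 2 days, of which 4 rose and 7 fell in the warm in mock, beside 35.3% and 34.3% of all genes. At 7 days 12 could be tested, of which 7 rose and 4 fell, beside 28.8% and 32.9%. HDA2 and HDA8 rose at both ages, HDA2 by 1.31 and 1.01 and HDA8 by 1.17 and 0.89 on the log2 scale. HDA18 fell by 1.88 and 0.97, and HDT4, of the plant-specific HD2 type, by 1.48 and 0.53. HOS15, a WD40-repeat protein known to bind HDA9 and PWR, rose in mock by 0.18 and 0.17 (limma adjusted p = 0.00990 and 0.00943), and with Heatin it was at 0.10, not called, and 0.22.

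Age was compared next, at each temperature and for each compound, over 23427 genes in a fit of all 24 samples. In mock at 22 °C 7 of 8 members differed between 7 and 2 days, 4 higher (38.1% of all genes) and 3 lower (38.6%), and at 27 °C also 7, 4 higher (36.0%) and 3 lower (35.4%). With Heatin the counts were 4 higher (37.8%) and 3 lower (38.8%) at 22 °C, and 5 higher (35.7%) and 2 lower (35.7%) at 27 °C. As with temperature, the members were called about as often as other genes, and the account below concerns their directions and sizes.

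Age and warmth pointed the same way for each H2A.Z gene. HTA9 rose with age 1.48-fold at 22 °C and 1.66-fold at 27 °C in mock (log2 0.56 and 0.73, SE 0.08 each, limma adjusted p = 3.65e-06 and 1.31e-07). HTA11 fell by 0.77 and 1.35 on the log2 scale and HTA8 by 0.89 and 1.05. With Heatin the log2 differences were 0.53 and 0.63 for HTA9, -0.87 and -1.32 for HTA11, and -0.69 and -0.93 for HTA8. No 7-day group of these genes overlapped the 2-day group of the same temperature and compound.

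Of the SWR1 genes, SWC6 and ARP6 were higher at 7 days in all 4 age comparisons and PIE1 was lower in 3. SWC6 rose 1.84-fold at 22 °C and 1.59-fold at 27 °C in mock, its 7-day samples giving 432, 404 and 479.8 normalized reads at 22 °C and 484, 427 and 498 at 27 °C. ARP6 rose 1.29-fold and 1.48-fold (log2 0.36 and 0.56, limma adjusted p = 0.000272 and 1.64e-06), with 7-day samples from 1198 to 1365. PIE1 was lower at 7 days, by 0.26 and 0.29 on the log2 scale in mock (limma adjusted p = 0.00179 and 0.000984), and by 0.26 with Heatin at 22 °C, whereas at 27 °C with Heatin its value of -0.12 was not called. Of the 10 other SWR1 genes 3 rose and 2 fell with age at 22 °C in mock (38.1% and 38.6% of all genes), and 7 rose and 1 fell at 27 °C (36.0% and 35.4%). There ARP4 rose by 1.05 and the RuvB-like gene AT5G67630 by 1.37, and all 5 removal factors were higher, INO80 by 0.51 and NRP1 by 1.24.

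HDA9 and PWR were called in mock for a difference between the temperatures in their age values, for PWR at a limma adjusted p of 0.0571, a call that several settings ended. HDA9 was at -0.11 (95% interval -0.27 to 0.06) at 22 °C in mock and rose by 0.24 at 27 °C (limma adjusted p = 0.0119). With Heatin at 27 °C it rose by 0.21 with overlapping samples, and leaving out replicate 2 or 3 of the 2-day group or replicate 2 of the 7-day group brought the value to 0.16 without a call. PWR rose by 0.30 at 22 °C in mock (limma adjusted p = 0.00180) and was at 0.03 (-0.13 to 0.20) at 27 °C, while with Heatin it rose by 0.31 and 0.27 (difference -0.05, 95% interval -0.28 to 0.19, limma adjusted p = 0.777). The mock samples of PWR at 27 °C overlapped between the ages. The age values depend on how libraries of different ages are scaled: dividing by total reads moved the median of all genes by -0.14 at 22 °C in mock and in Heatin. Such scaling moves all genes of a comparison nearly alike. Relative to the shift, members could therefore hardly move (at most 0.0044), which does not show which scaling is right. It ended the age call of ARP6 at 22 °C with Heatin (0.10). For HDA9 at 22 °C it gave calls in mock (-0.25) and with Heatin (-0.24).

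**Figure D4:**
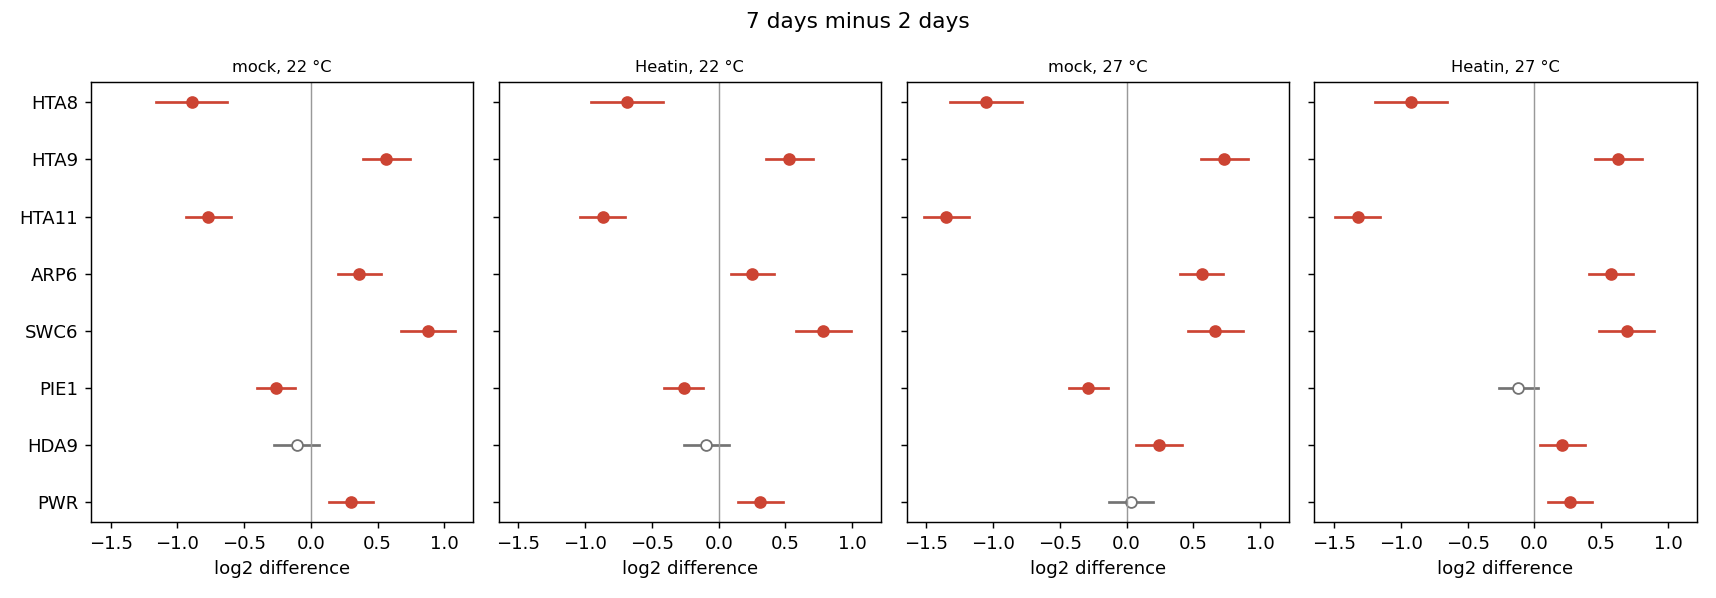
Log2 difference of 7 days minus 2 days (x axis) for each of the 8 genes (y axis) at 22 °C and 27 °C in mock and Heatin seedlings. Points are limma estimates and lines 95% intervals, red and filled where the adjusted p was below 0.1. HTA9, ARP6 and SWC6 lie above 0 and HTA8 and HTA11 below 0 in all 4 panels, with SWC6 at 0.88 and HTA11 at -0.77 in mock at 22 °C.

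No Heatin difference of the 8 transcripts was called. At 2 days 0 of 8 members were called at 22 °C and 0 of 8 at 27 °C, where 1 gene in all (0.00432%) was called at each temperature. At 7 days it was 0 of 8 at 22 °C, against 2.47% of all genes, and 0 of 8 at 27 °C, against 5.42%. These counts are from limma, and edgeR, DESeq2 and voom on the whole reads also called 0 in each comparison. At an unadjusted p below 0.05, limma had 0 members at 22 °C or 27 °C at 2 days, 0 at 22 °C at 7 days and 2 at 27 °C at 7 days. Of all genes, 412 (22 °C) and 593 (27 °C) of 23140 passed that threshold at 2 days. At 7 days 2926 (22 °C) and 3728 (27 °C) of 23252 did. Many other genes thus passed as well, and whether 2 of 8 exceeds their share was not tested.

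The 2 members past that unadjusted threshold were HTA9 and PWR. In 7-day seedlings at 27 °C, HTA9 had 9411, 10311 and 9651 normalized reads with Heatin against 11149, 10862 and 10773 in mock, a log2 difference of -0.16 (95% interval -0.29 to -0.03, unadjusted p = 0.0206, limma adjusted p = 0.207). PWR had 3099, 3504 and 3121 with Heatin against 2523, 2995 and 2979, a difference of 0.20 (0.01 to 0.38, unadjusted p = 0.0364, limma adjusted p = 0.270). In neither gene did the groups overlap, yet both failed the adjustment over all genes.

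For the other 6 members the intervals limit how large a Heatin effect could be. At 2 days the log2 differences ran from -0.10 (SWC6 at 27 °C) to 0.16 (SWC6 at 22 °C), and the outermost bounds of any 95% interval were -0.33 and 0.38, both of SWC6. At 7 days they ran from -0.12 (ARP6 at 22 °C) to 0.14 (PIE1 at 27 °C), with outermost bounds of -0.28 (ARP6 at 22 °C) and 0.43 (HTA8 at 22 °C). HTA11 at 22 °C had 7-day groups that did not overlap, at -0.10 (95% interval -0.26 to 0.06). PIE1 at 2 days was the tightest, with bounds of -0.18 to 0.07 at 22 °C and -0.15 to 0.10 at 27 °C. A change of the temperature response by Heatin was not called for any member either, with 0 of 8 at 2 days, where 0% of genes were called, and 0 of 8 at 7 days, where 0.783% were. At an unadjusted p below 0.05 limma had 0 members at 2 days and 1 at 7 days, PWR, whose log2 difference between the responses was 0.27 (limma adjusted p = 0.378). Of all genes, 304 of 23140 passed that threshold at 2 days and 2903 of 23252 at 7 days. edgeR, DESeq2 and voom called 0 members in these 2 comparisons as well.

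**Figure D5:**
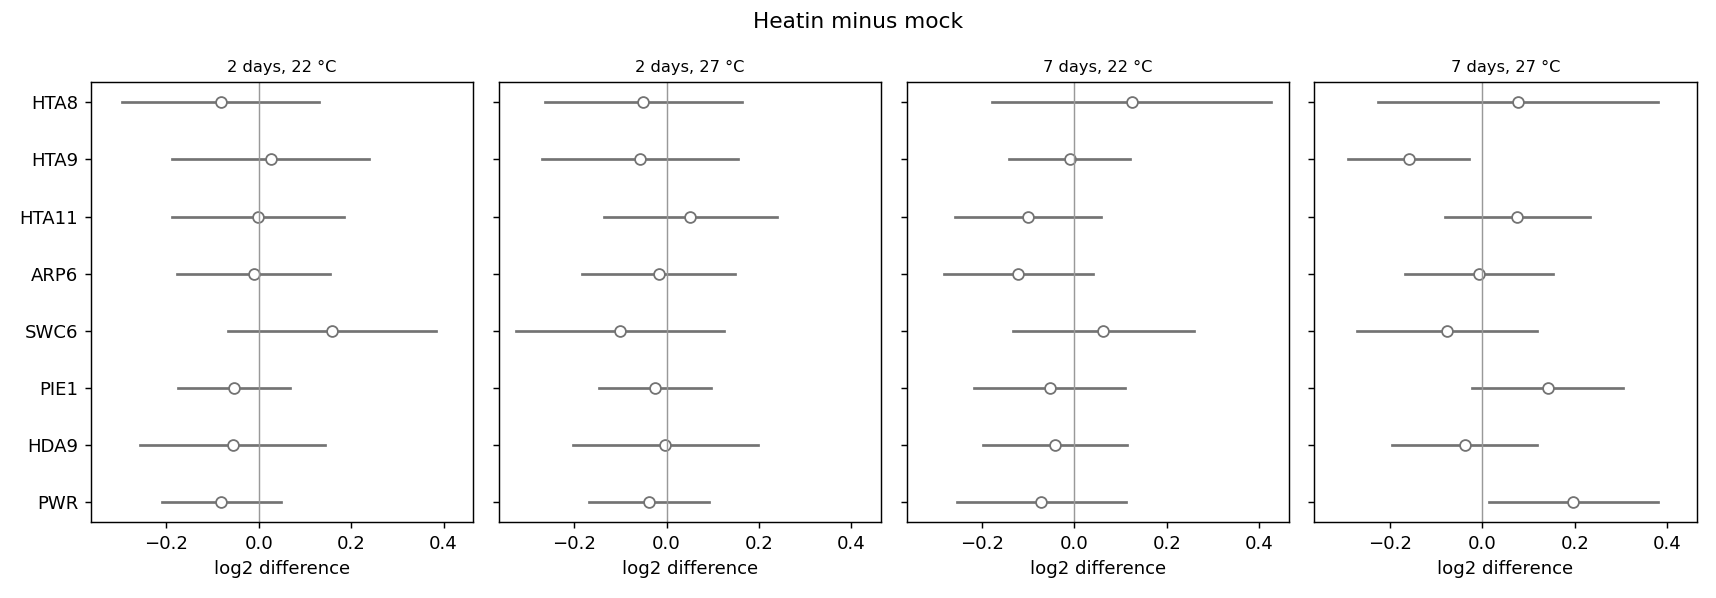
Log2 difference of Heatin minus mock (x axis) for each of the 8 genes (y axis) at 2 and 7 days and at 22 °C and 27 °C. Points are limma estimates and lines 95% intervals, all open and grey because no adjusted p was below 0.1. All 32 points lie between -0.16 and 0.20.

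Of 8 genes on which these chromatin factors are known to act 6 could be tested at 2 days and 7 at 7 days. In mock 4 rose at 2 days, the others being WRKY53 at 0.16 and WRKY57 at -0.15, and at 7 days 5 rose and 1 fell. Of all genes 35.3% rose and 34.3% fell at 2 days and 28.8% and 32.9% at 7 days, so 4 of 6 called at 2 days was no more than the background in both directions together. HSP70 (AT3G12580), a heat-shock protein gene used as a readout of H2A.Z nucleosomes, rose by 1.16 and 1.78 on the log2 scale. PIF4, the transcription factor central to growth in the warm, rose by 1.99 and 1.17, and YUC8, an auxin biosynthesis gene, by 1.22 and 0.68. FLC, the floral repressor whose expression needs the SWR1 complex, rose by 0.81 and 1.01 in mock, and at 7 days and 22 °C it was the single gene of the list that was called for Heatin (0.32, limma adjusted p = 0.0499). Exons of AT5G01675 overlap 804 of the 1180 exonic bases of FLC. As counting ignored strand, reads from there cannot be told apart, so these values may not be those of FLC alone. WRKY53, a regulator of leaf ageing, rose by 1.03 at 7 days while WRKY57, named because it was the one gene that fell, had a log2 difference of -0.95.

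Across the 24 samples the H2A.Z genes ran together or opposite. HTA8 and HTA11 had a Pearson correlation of log2 values of 0.97, HTA9 with HTA11 of -0.97, and HTA9 with HTA8 of -0.96. With the group means taken out these became 0.65, -0.61 and -0.44, which describe how samples of a group deviate. The points share their libraries and the 8 groups, and no test was made. By the same measure, among 20877 genes with a mean of at least 10, the closest to HTA11 were RRF and PRPL28, both genes of chloroplast translation (0.995 each), and the closest to HTA8 were AT5G53140 (0.990) and CKS2 (0.988). HTA9 was nearest to AT3G51500 (0.990) and AT5G16470 (0.988), and PWR to TOR (0.984) and AT1G70620 (0.980). The nearest genes to SWC6, HDA9, PIE1 and ARP6 were AT2G34585 (0.977), SWA1 (0.949), CAND1 (0.947) and AT4G18570 (0.941), followed by SEP2 (0.976), AT5G38720 (0.940), ATPI4K ALPHA (0.939) and EMB2763 (0.939).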

How the data were processed

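The authors aligned single-end 50-base reads to TAIR10 using TopHat. They ran HTSeq-count in its unstranded mode on gene models stripped of CPuORF annotations, and adjusted the resulting counts for depth by a DESeq factor for each sample. The deposited signal is this normalized read count. A single read was worth 0.598 to 2.09 units depending on the sample, and 100% of values were whole multiples of it (tolerance 0.02), so whole reads were recovered: 19705950 to 60575036 per sample, median 34387203.5. Beside them, 6.19% to 12.4% of reads were set aside as not unique and 1.06% to 1.28% as ambiguous.

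Tests used limma 3.58.1 under R 4.3.3, fitted to log2(value + 1) of genes with a mean of at least 1 and with a mean-variance trend. Temperature and Heatin were tested among the 12 samples of each age, and age among all 24. Genes were called at a Benjamini-Hochberg adjusted p below 0.1. Folds are on the log2(value + 1) scale. voom, edgeR 4.0.16 and DESeq2 1.42.0 on whole reads, 3 other scalings, other pseudocounts (0.5, 10) and filters, and a replicate block were alternatives, and the fit was tested on simulated data. Members, gene lists and tests were chosen with earlier results of these data known. From the lists, at most 4 called genes per comparison were named by size of change, and for each member the 2 genes with the closest pattern. Genes so named at one age may also be given at the other, and WRKY57 was named after its values were seen. Gene models, symbols and sequences came from RefSeq TAIR10.1, matched by locus identifier, as did the exon lengths behind values per kilobase. Sequence identity was computed with Biopython 1.88, and figures were drawn with matplotlib 3.10.9.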

Additional observations from a re-analysis of the deposited data

Results flagged for a closer look

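The temperature response (27 °C minus 22 °C) of 4 members differed between 2 and 7 days, in mock, with Heatin or in both, by a limma test of the difference itself, given here as the 7-day minus the 2-day log2 response. In mock 3 of 8 members were called, beside 50.1% of all genes, and with Heatin 3 of 8, beside 46.4%. Being called therefore did not set the members apart from other genes. For HTA11 it was -0.58 in mock (limma adjusted p = 0.000362) and -0.46 with Heatin (limma adjusted p = 0.00338), its fall being deeper at 7 days in either case. For HDA9 it was 0.35 in mock (limma adjusted p = 0.0182) and 0.30 with Heatin (limma adjusted p = 0.0437), as the fall at 2 days was -0.43 and -0.38 and the values at 7 days were -0.08 and -0.08. For ARP6 it was 0.32 with Heatin (limma adjusted p = 0.0260). For PWR it was -0.27 in mock (limma adjusted p = 0.0571), and the value without the 7-day replicate 1 at 27 °C was -0.19 and not called. Without the 2-day replicate 1 at 22 °C, the 2-day replicate 3 at 27 °C or the 7-day replicate 2 at 22 °C it was -0.24 each time, again without a call. The HDA9 difference with Heatin was 0.24 to 0.25 and was not called when Heatin replicate 1 at 22 °C or replicate 2 or 3 at 27 °C of the 2-day groups, or replicate 2 at 27 °C of the 7-day group, was left out.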

How the results depend on the processing

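Each comparison was recomputed under 14 alternatives and with each library left out in turn. Of 2752 recomputed member values, 0 reversed a called direction, 9 calls were lost and 14 gained under the alternatives, and 14 were lost and 4 gained on leaving out 1 library. The number of members called moved by over 1.5 times in a single comparison, the difference of the temperature response between the ages in mock: it was 3, and 2 to 5 with 1 library left out, the 5 coming without the 2-day replicate 3 at 22 °C, where ARP6 (0.27) and SWC6 (-0.29) were called too. For PWR in that comparison TMM, total-read scaling, voom, edgeR and a threshold of 0.05 each ended the call, with values from -0.27 to -0.17, while ARP6 was called under TMM, total reads, voom and edgeR (0.24 to 0.30) and HTA9 under total reads (0.27). PIE1 was called higher in the warm at 7 days with Heatin under 5 settings (0.15 to 0.19). Total-read scaling, which moved the median of all genes by -0.14 for age at 22 °C and by 0.10 for the mock difference between the ages, ended the call of ARP6 for age at 22 °C with Heatin (0.10) and gave one for HDA9 (-0.25 in mock and -0.24 with Heatin). With the replicate block each comparison called as many members as without it, 7 for temperature at 2 days in mock and 4 at 7 days. Over all genes the block moved the temperature calls at 2 days in mock from 16094 to 16898 and the Heatin calls at 7 days and 22 °C from 574 to 948. Across all settings the latter ran from 241 to 948, those at 27 °C from 643 to 1587 and those for the interaction at 7 days from 40 to 446, while at 2 days they ran from 0 to 15. Same-numbered samples correlated by 0.0075 to 0.37 at 2 days and -0.083 to 0.105 at 7 days in their deviations. At 2 days 14 of 18 such pairs exceeded 0.1, against 4 of 36 pairs of different number, and at 7 days 1 of 18 against 1 of 36. The means were 0.163 for same-numbered and -0.080 for other pairs at 2 days, and 0.042 and -0.021 at 7 days. Deviations from a group mean add up to 0 within the group. Lower values of other pairs therefore follow in part from higher values of same-numbered pairs and are no separate result. By their own values, 0.0075 to 0.37, same-numbered samples of 2 days tended to deviate alike, although not every sample correlated best with its own number. The labels do not say what the numbers stand for, so they were not taken as pairs in the main fits. The p-values and intervals of 2 days leave this likeness out. Read depth limits HTA8 most, with 92 reads in its shallowest sample.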
